A study of Mus musculus with 25 samples.

Results

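The genes described here encode the heterogeneous nuclear ribonucleoproteins (hnRNPs) and the neuronal splicing regulators of the RBFOX, NOVA, PTBP, MBNL, CELF, ELAVL, QKI and KHDRBS families. They were chosen as a list of 44 named genes, of which 43 had at least 10 counts summed over the 24 immunoprecipitates, out of 21738 genes that passed the same filter. The 1 gene left out was *Mbnl3*, with 3 counts over the 24 immunoprecipitates, and the member just inside the limit was *Ptbp3*, with 557. The list was drawn up by gene family.

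Ribosome-associated mRNA was immunoprecipitated from whole spinal cord of 6-month-old male C57BL/6J mice that express an HA-tagged ribosomal protein (RiboTag) in cells with *ChAT*-driven Cre, that is, in cholinergic neurons, among them the spinal motor neurons. Cholinergic *Bmal1* knockout mice (*ChAT-BKO*), which carried *ChAT*-Cre with RiboTag fx/+ on a *Bmal1* fx/fx background, were compared with controls that carried *ChAT*-Cre and RiboTag fx/+ without the floxed *Bmal1* alleles, so Cre and the tag were shared by both genotypes and the floxed alleles were not. Cords were taken at zeitgeber time 8 (ZT8, in the light phase) and ZT20 (in the dark phase), with 6 cords in each of the 4 groups and 1 cord per library, beside 1 pooled library of whole-cord input RNA. Total counts ran from 4.04 M to 31.7 M per immunoprecipitate, with a median of 12.0 M, and the shallowest library was *ChAT-BKO* ZT8 replicate 5.

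HnRNPs are abundant nuclear RNA-binding proteins that coat nascent transcripts, and they act in splice site choice, mRNA export, stability and translation. RBFOX, NOVA, PTBP, MBNL, CELF, ELAVL and KHDRBS proteins bind short motifs beside alternative exons and set neuronal or developmental splicing programs. *Bmal1*, listed as *Arntl*, encodes the clock activator that pairs with CLOCK and binds E-box elements in promoters. Many of the genes for these splicing proteins are themselves alternatively spliced, which gene-level counts do not resolve.

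The targeted gene and the cell type were checked first. *Arntl* fell in *ChAT-BKO* at ZT8, from 8.44 ± 1.43 CPM (counts per 1 M, scaled by the trimmed mean of M-values; SD, n = 6) to 2.64 ± 0.538, and at ZT20, from 8.73 ± 1.18 to 1.92 ± 0.515 CPM (edgeR quasi-likelihood test with Benjamini-Hochberg adjustment, adjusted p = 1.56e-05 and 1.98e-07). All 6 cholinergic markers were above the input, with a median log2 ratio of 2.17, whereas 0 of 6 oligodendrocyte, 0 of 6 astrocyte, 0 of 6 microglia and 0 of 6 endothelial markers were. Oligodendrocyte markers still summed to a median of 1812 to 1950 CPM per group, so the immunoprecipitates kept RNA of other cells. Muscle markers varied most between libraries, from a sum of 4.52 to 154 CPM. In such bulk samples, fewer cells of a type and less RNA per cell cannot be told apart.

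As a set, the 43 members were well expressed in these immunoprecipitates, although *Ptbp3*, at 1.76 CPM, lay below the median of all genes. Their median level was 79.4 CPM, against 4.16 CPM over all genes tested, and together they held 0.361% of counts in controls at ZT8 and 0.373% in controls at ZT20. Per kilobase of exon, counted over all annotated exons of a gene and not over its expressed transcripts, the 6 highest members were all hnRNP genes. *Hnrnpa0*, an intronless member of the A/B group, was at 52.2 ± 5.38 CPM per kb and *Hnrnpab* at 51.5 ± 3.09 CPM per kb (SD, n = 24). These leading levels could not be ordered, since *Hnrnpab* exceeded *Hnrnpa0* in 13 of 24 libraries. *Hnrnpa1*, which encodes a core hnRNP that represses exon inclusion, followed with 47.3 ± 3.50 CPM per kb. *Hnrnpa3*, *Hnrnpa2b1* and *Hnrnpc* lay at 36.5, 36.3 and 35.9 CPM per kb and did not separate either, *Hnrnpa2b1* being above *Hnrnpa3* in 11 of 24 libraries.

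The highest of the neuronal regulators were *Rbfox1*, which encodes a splicing factor that binds UGCAUG, at 34.7 ± 1.89 CPM per kb and *Elavl3*, which encodes the neuronal RNA-binding protein HuC, at 33.2 ± 2.66 CPM per kb. *Rbfox1* exceeded *Hnrnpc*, the last of the 6 highest, in 10 of 24 libraries, so these 2 did not separate. *Nova1* and *Nova2*, whose proteins bind YCAY clusters in neuronal pre-mRNA, were at 12.9 and 8.25 CPM per kb. In the PTBP family the neuronal paralog *Ptbp2* led with 5.44 ± 0.554 CPM per kb, above *Ptbp1*, the paralog that is repressed on neuronal differentiation, at 1.11 ± 0.187, and *Ptbp3* at 0.235 ± 0.0724. *Celf2*, with 0.476 CPM per kb, and *Khdrbs2*, with 0.423, were the other members below 0.5 CPM per kb. The place of *Celf2* reflects its 25.9 kb of annotated exon. At 12.3 CPM it was above *Celf3* (9.07 CPM) and *Celf5* (5.54 CPM), which ranked above it per kb.

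Relative to whole cord, most members were not raised in the cholinergic immunoprecipitates. On the log2 scale, with 0.5 CPM added to both values, 7 of 43 members were above the single input library, against 37.3% of all genes tested (percent over 0 among 21738 genes), and the members' median ratio was -0.41 beside -0.28 for all genes. The 7 were *Hnrnpab* (0.60), *Hnrnph2* (0.41), *Hnrnpa0* (0.37), *Celf6* (0.32), *Nova2* (0.29), *Hnrnpc* (0.08) and *Hnrnpm* (0.01). *Hnrnpab*, *Hnrnph2*, *Hnrnpa0* and *Nova2* were above the input in 24 of 24 libraries. When the input was included in the scaling, the median ratio of all genes rose to -0.01, a difference of 0.27, and that of the members to 0.04, so that the members' median lay above that of all genes instead of below it. Under that scaling 22 of 43 members and 49.5% of all genes were above the input, so both the count above 0 and the place of the members relative to all genes depend on the scaling.

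At the low end of that order was *Qk*, which encodes quaking, an RNA-binding protein of the STAR family that is most abundant in oligodendrocytes and astrocytes. *Qk* was at 26.0 ± 4.63 CPM in the immunoprecipitates (SD, n = 24) and at 487 CPM in the input, a log2 ratio of -4.20 that placed it in the lowest 0.276% of all genes. The median ratios of the glial markers were -3.64 for oligodendrocytes and -4.33 for astrocytes. *Ptbp3* (-3.06), *Ptbp1* (-2.49), *Celf2* (-2.44) and *Celf5* (-2.19) came next. Both measured MBNL genes, which encode the muscleblind splicing factors, were low as well, *Mbnl1* at -1.66 and *Mbnl2* at -1.46. Families therefore did not lie together. In the CELF family the ratio ran from -2.44 for *Celf2* to 0.32 for *Celf6*, and in the STAR family *Khdrbs1*, which encodes Sam68, was at -0.27 against -4.20 for *Qk*.

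**Figure D1:**
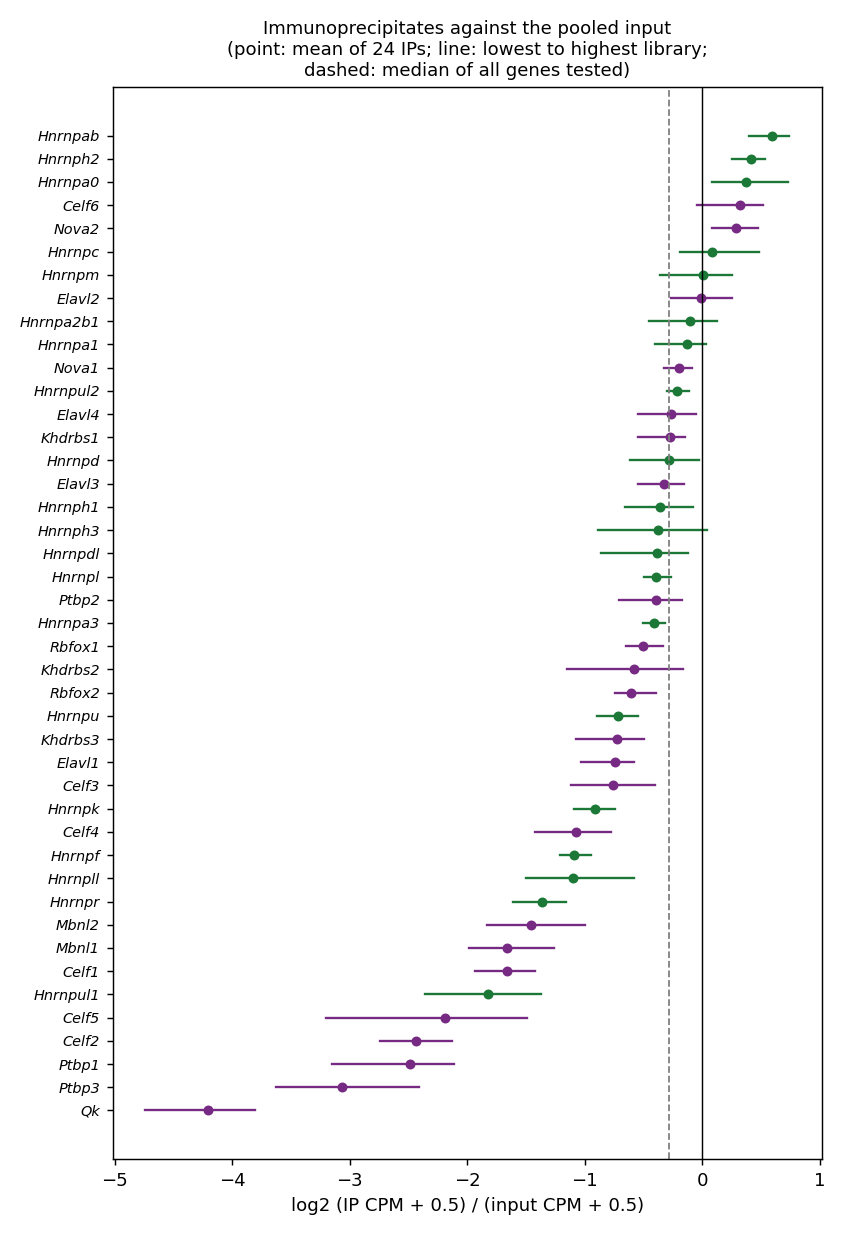
Log2 ratio of immunoprecipitate to pooled input for the 43 members, with a point for the mean of the 24 immunoprecipitates, a line from the lowest to the highest library, and a dashed line at the median of all genes tested (-0.28). Green marks hnRNP genes and purple the others; *Hnrnpab* is highest at 0.60 and *Qk* lowest at -4.20.

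The first question was whether loss of *Bmal1* changed these genes at ZT8. No member passed an adjusted p of 0.05, against 0.184% of all genes tested, and 0 members had an unadjusted p under 0.05, against 4.83% of all genes. DESeq2 and limma-voom also called 0 members. The median log2 fold change of the members was 0.02 beside 0.00 for all genes, and 30 of 43 were above 0 (50% of all genes). The 95% interval lay within ±0.5 log2 units for 41 of 43 members, the exceptions being the low-abundance *Ptbp3* and *Celf5*, and within ±1 for all 43.

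The 5 members with the smallest p at ZT8 show the size of the differences. *Celf1*, which encodes a GU-rich element binding protein, ran from 20.9 to 26.0 CPM (median 23.9) in controls and from 24.5 to 28.7 CPM (median 25.2) in *ChAT-BKO*. The ranges overlapped, with 2 of 6 *ChAT-BKO* libraries above every control, and the log2 fold change was 0.14 ± 0.073 (SE; edgeR, adjusted p = 1.00). *Hnrnph1* ran from 82.9 to 105 CPM (median 92.2) in controls and from 85.1 to 102 CPM (median 99.7) in the knockouts, a log2 fold change of 0.10 ± 0.063 (edgeR, adjusted p = 1.00). *Hnrnpk* ran from 124 to 136 CPM (median 132) and from 133 to 142 CPM (median 137), a log2 fold change of 0.07 ± 0.047 (edgeR, adjusted p = 1.00). Both genes overlapped between genotypes, although 4 of 6 *ChAT-BKO* libraries were above every control for *Hnrnpk*. *Khdrbs2*, which encodes the Sam68-like protein SLM1, ran from 3.23 to 4.83 CPM (median 3.89) and from 4.01 to 5.59 CPM (median 4.49), a log2 fold change of 0.20 ± 0.139 (edgeR, adjusted p = 1.00). *Nova2* ran from 62.1 to 75.1 CPM (median 69.6) and from 59.8 to 67.1 CPM (median 65.2), a log2 fold change of -0.08 ± 0.059 (edgeR, adjusted p = 1.00). These groups overlapped too. *Hnrnpd* and *Hnrnpdl*, the members called between times, had log2 fold changes of 0.03 ± 0.069 and -0.03 ± 0.054 between genotypes at ZT8 (edgeR, adjusted p = 1.00).

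At ZT20, no member was called between genotypes, against 0.23% of all genes, and DESeq2 and limma-voom again called 0. Here 4 members had an unadjusted p under 0.05, against 6.28% of all genes, and all 4 were lower in *ChAT-BKO*, against 2.85% of all genes in that direction. *Hnrnpd*, which encodes AUF1, a protein that binds AU-rich elements, ran from 86.9 to 107 CPM (median 101) in controls and from 79.6 to 92.8 CPM (median 85.8) in *ChAT-BKO*. In 3 of 6 *ChAT-BKO* libraries it was below every control, and the log2 fold change was -0.22 ± 0.057 (95% interval -0.34 to -0.10; edgeR, adjusted p = 0.208). Its paralog *Hnrnpdl* ran from 70.7 to 102 CPM (median 77.5) in controls and from 60.6 to 75.9 CPM (median 68.8) in *ChAT-BKO*. The groups overlapped, with 4 of 6 *ChAT-BKO* libraries below every control, and the log2 fold change was -0.24 ± 0.083 (edgeR, adjusted p = 0.546).

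*Hnrnpk*, which encodes the poly(C)-binding member of the family, ran from 139 to 156 CPM (median 152) in controls and from 122 to 148 CPM (median 140) in *ChAT-BKO* at ZT20, a log2 fold change of -0.14 ± 0.055 (edgeR, adjusted p = 0.684). *Khdrbs1* ran from 88.3 to 98.7 CPM (median 96.7) in controls and from 84.2 to 95.2 CPM (median 88.8) in *ChAT-BKO*, a log2 fold change of -0.11 ± 0.050 (edgeR, adjusted p = 0.773). *Elavl3* was the only one of the 5 with the smallest p to lie higher in *ChAT-BKO*, from 220 to 258 CPM (median 239) against 196 to 242 CPM (median 217) in controls, a log2 fold change of 0.12 ± 0.059 (edgeR, adjusted p = 0.793). In all 3 genes the groups overlapped. The 20 hnRNP genes leaned to 1 side, 18 of 20 having a log2 fold change below 0 with a median of -0.04, while 13 of the other 23 members were above 0 (48.3% of all genes were above 0). None of these 20 was called, the genes share libraries and scaling, and the number below 0 ran from 14 to 19 of 20 over the alternatives and left-out libraries. Some of these genes split by replicate number within *ChAT-BKO* at ZT20, and in the opposite direction within controls at ZT8. The values for *ChAT-BKO* at ZT20 come first. In replicates 1 to 3 *Hnrnpa2b1* was at 205 to 218 CPM and *Hnrnpc* at 131 to 145, and in replicates 4 to 6 at 260 to 282 and 171 to 205. *Hnrnpd* did not split in that group (82.5 to 89.7 and 79.6 to 92.8 CPM). In controls at ZT8, replicates 1 to 3 had *Hnrnpa2b1* at 236 to 273, *Hnrnpc* at 159 to 175 and *Hnrnpd* at 106 to 119 CPM. Replicates 4 to 6 had them at 188 to 225, 128 to 148 and 93.6 to 102 CPM. The slope of log2 CPM on log2 gene length split as well. It was 0.256 to 0.370 and 0.169 to 0.224 in *ChAT-BKO* at ZT20, and 0.163 to 0.195 and 0.246 to 0.365 in controls at ZT8. Leaving out 1 library at a time cannot show such a split, and its cause was not tested. Muscle markers differed in the same comparison, with a median sum of 65.7 CPM in *ChAT-BKO* beside 11.6 CPM in controls and 3 of 8 markers called. Their part in the hnRNP values was not tested.

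**Figure D2:**
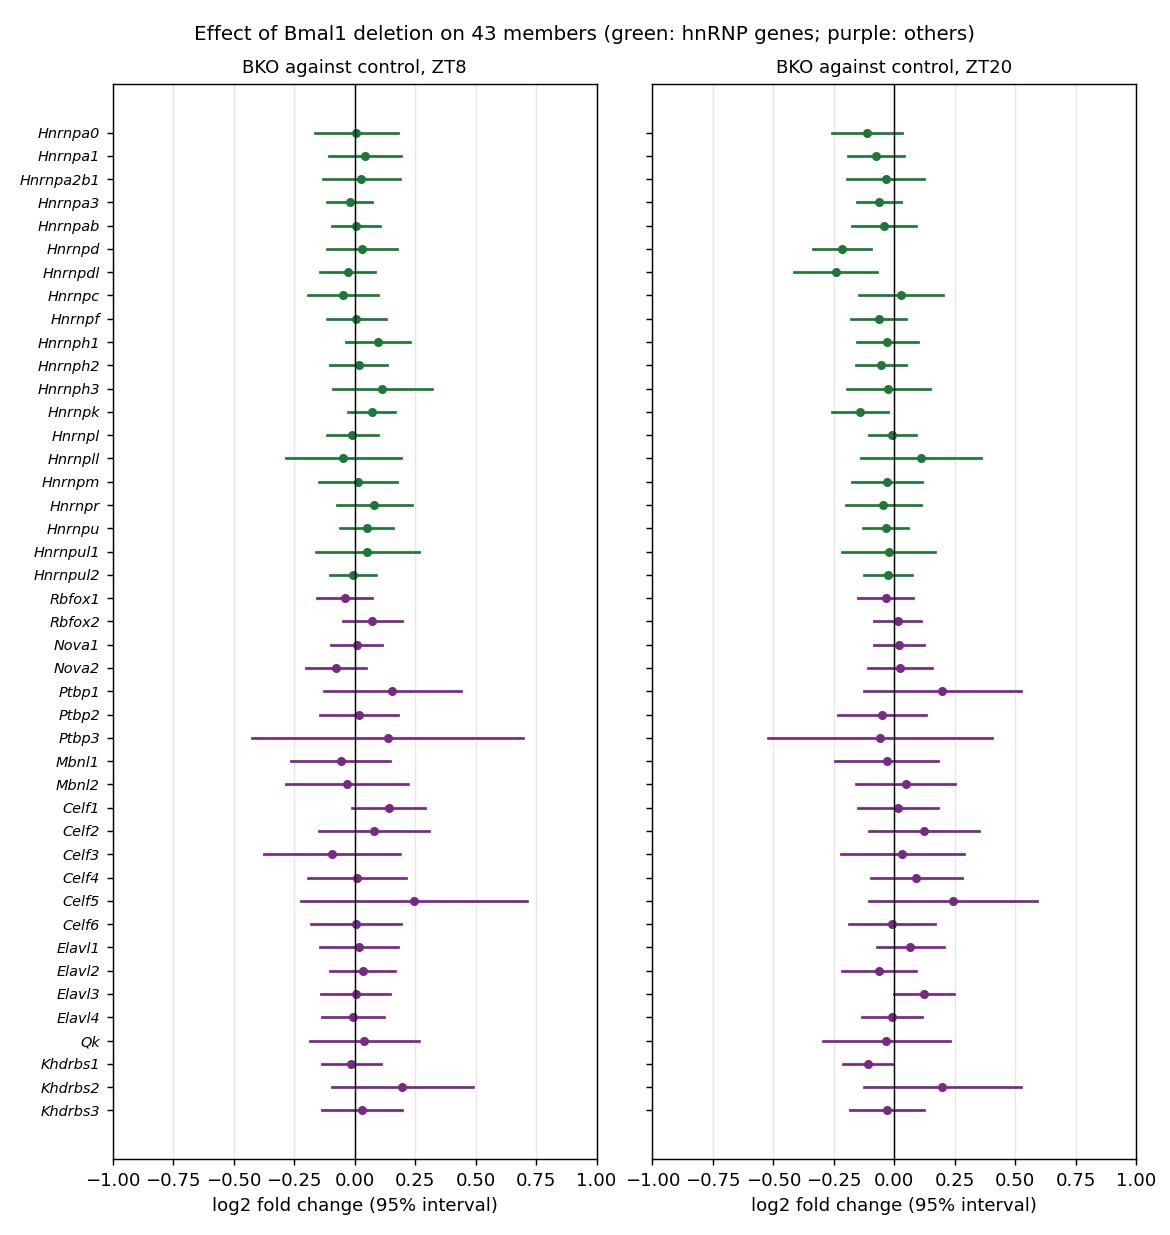
Log2 fold change of *ChAT-BKO* against control for the 43 members at ZT8 (left) and ZT20 (right), with 95% intervals and 6 libraries per group. Green marks hnRNP genes and purple the others; intervals lie within ±0.5 for 41 members at ZT8 and 39 at ZT20, and *Hnrnpd* and *Hnrnpdl* lie farthest to the left at ZT20.

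Whether the genotype effect differed between the times was tested as an interaction over all 24 immunoprecipitates. No member was called, against 0% of all genes, and 2 members had an unadjusted p under 0.05, against 3.9% of all genes. The interaction was -0.20 ± 0.067 log2 units for *Hnrnpk*, -0.23 ± 0.091 for *Hnrnpd* and -0.20 ± 0.103 for *Hnrnpdl*, with 0.13 ± 0.090 for *Elavl3* and 0.12 ± 0.082 for *Nova2* (edgeR, adjusted p = 1.00 for each). Of the groups not given elsewhere, *Elavl3* ran from 214 to 257 CPM (median 227) in controls at ZT8 and from 197 to 249 CPM (median 235) in *ChAT-BKO* at ZT8, and *Nova2* from 62.3 to 78.6 CPM (median 69.5) in controls at ZT20. DESeq2 and limma-voom called 0 members as well. A difference in genotype effect between ZT8 and ZT20 was thus not shown for any member, and the 95% interval of the interaction lay within ±0.5 for 39 of 43.

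The next question was whether levels differed between the times of day within a genotype. In *ChAT-BKO*, 2 members were called between ZT20 and ZT8, both lower at ZT20, against 0.0552% of all genes called lower. They were the paralogs *Hnrnpdl* and *Hnrnpd*, whose proteins bind AU-rich elements and shuttle between nucleus and cytoplasm. *Hnrnpdl* ran from 87.3 to 101 CPM (median 91.5) in *ChAT-BKO* at ZT8 and from 60.6 to 75.9 CPM (median 68.8) at ZT20. All 6 ZT20 libraries were below all 6 ZT8 libraries, and the log2 fold change was -0.42 ± 0.060 (95% interval -0.55 to -0.30; edgeR, adjusted p = 0.00225). *Hnrnpd* ran from 98.4 to 119 CPM (median 106) at ZT8 and from 79.6 to 92.8 CPM (median 85.8) at ZT20. Again all 6 ZT20 libraries were below all 6 ZT8 libraries, with a log2 fold change of -0.33 ± 0.063 (95% interval -0.46 to -0.20; edgeR, adjusted p = 0.0248). Among all genes, 0.506% were lower at ZT20 without overlap.

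Muscle markers moved with the same groups, from a median sum of 6.73 CPM in *ChAT-BKO* at ZT8 to 65.7 CPM at ZT20, with ranges of 4.71 to 154 and 5.41 to 93.9 CPM, 0 of 8 markers called and none at 0 counts in all libraries of either group. The ZT20 library with the least muscle signal (5.41 CPM, replicate 4) had *Hnrnpdl* at 75.9 CPM and *Hnrnpd* at 92.8 CPM, both below every ZT8 library. The ZT8 library with the most (154 CPM, also numbered replicate 4) had them at 96.4 and 119 CPM. Within the ZT20 group, replicate 4 had the highest values of both genes. The ZT20 library with the most muscle signal (replicate 6, 93.9 CPM) had the lowest, 60.6 CPM for *Hnrnpdl* and 79.6 CPM for *Hnrnpd*. ZT20 replicate 1, with a muscle sum of 89.7 CPM, had them at 72.2 and 89.7 CPM. These are the values of single libraries, and the part of muscle RNA in the time comparison was not tested. The *Hnrnpdl* call held with any 1 library left out (adjusted p from 0.00112 to 0.0081). The *Hnrnpd* call was lost without *ChAT-BKO* ZT8 replicate 1 (adjusted p = 0.0580), ZT8 replicate 2 (0.0568), ZT20 replicate 2 (0.0590) or ZT20 replicate 6 (0.0715), with log2 fold changes of -0.31, -0.33, -0.33 and -0.31 in edgeR.

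In controls the same genes were not called. *Hnrnpdl* ran from 87.1 to 101 CPM (median 96.6) at ZT8 and from 70.7 to 102 CPM (median 77.5) at ZT20, and the groups overlapped because ZT20 replicates 4 and 5 were at 88.7 and 102 CPM. Its log2 fold change was -0.22 ± 0.080 (edgeR, adjusted p = 0.441). *Hnrnpd* ran from 93.6 to 119 CPM (median 104) at ZT8 and from 86.9 to 107 CPM (median 101) at ZT20, with a log2 fold change of -0.10 ± 0.065 (edgeR, adjusted p = 0.743). The time effects of both genes in controls and in *ChAT-BKO* were compared by the interaction given above, whose adjusted p was 1.00 for each, with 95% intervals of -0.42 to -0.05 for *Hnrnpd* and -0.41 to 0.01 for *Hnrnpdl*. A difference between the genotypes in the time effect was thus not shown, and equal effects were not shown either.

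*Hnrnpd* and *Hnrnpdl* are neighbours on the same strand of chromosome 5, at chr5:99955935-99978938 and chr5:100033577-100039664 (GRCm38, minus strand), 54.6 kb apart with 1 annotated gene between them. Their promoter windows are printed because these are the members called together, from 250 bases before to 50 bases after the RefSeq start (RefSeq, GRCm38.p6). Capitals mark an E-box (CACGTG, which reads the same on both strands), an E'-box (CACGTT) or a cAMP response element (TGACGTCA), searched on both strands. The *Hnrnpdl* window is chr5:100039173-100039472 and lies within the annotated gene, and the *Hnrnpd* window is chr5:99978889-99979188, both on the minus strand.
Hnrnpdl: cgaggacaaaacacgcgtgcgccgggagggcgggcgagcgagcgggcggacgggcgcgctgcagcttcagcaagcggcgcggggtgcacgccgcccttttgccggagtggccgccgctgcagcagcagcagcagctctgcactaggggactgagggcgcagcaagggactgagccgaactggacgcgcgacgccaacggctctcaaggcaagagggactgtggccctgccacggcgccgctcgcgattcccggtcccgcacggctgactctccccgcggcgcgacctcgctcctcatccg
Hnrnpd: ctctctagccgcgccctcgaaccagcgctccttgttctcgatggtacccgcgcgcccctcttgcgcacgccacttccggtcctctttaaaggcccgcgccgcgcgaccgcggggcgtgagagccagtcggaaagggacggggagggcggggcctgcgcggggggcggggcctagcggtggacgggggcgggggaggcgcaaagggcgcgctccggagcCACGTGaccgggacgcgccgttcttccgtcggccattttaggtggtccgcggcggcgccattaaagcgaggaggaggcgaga

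The *Hnrnpd* window held 1 E-box, starting 32 bases before the start site, and the *Hnrnpdl* window held none of the 3 motifs. E-boxes were found in the windows of 8.09% of 27025 genes and of 7 of the 37 members with a window (*Hnrnpa3*, *Hnrnpd*, *Hnrnpf*, *Hnrnph2*, *Hnrnpm*, *Ptbp1* and *Mbnl1*), of which *Hnrnpd* was the only one called in any comparison. The E'-box was in the windows of 5.44% of genes and of 3 members, and the cAMP response element in 2.03% of genes and in 2 members. The 3 motifs share the core ACGT, and no such core can belong to more than 1 of them. These matches describe letters in a window and not binding.

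Other hnRNP genes were higher at ZT20. In controls no member was called, against 0.115% of all genes, but 10 members had an unadjusted p under 0.05, against 8.25% of all genes, 9 of them higher at ZT20, against 4.74% of all genes. In 5 members all 6 ZT20 libraries were above all 6 ZT8 libraries (*Hnrnpu*, *Hnrnph1*, *Hnrnpk*, *Hnrnph3* and *Elavl2*), against 0.589% of all genes. Summed markers of some other cell types had higher medians at ZT20 in the same control groups, with overlapping ranges. The 4 inhibitory neuron markers summed to 300 to 350 CPM (median 324) at ZT8 and 345 to 420 CPM (median 355) at ZT20, and the 6 endothelial markers to 8.13 to 13.3 CPM (median 11.1) and 11.3 to 20.5 CPM (median 14.5), with 0 markers called in either list and none at 0 counts in all libraries of a group. Oligodendrocyte markers summed to 1661 to 1939 CPM (median 1859) at ZT8 and 1660 to 2179 CPM (median 1950) at ZT20, and astrocyte medians were 195.8 and 196.1 CPM. Medians were lower at ZT20 for cholinergic markers (4631 and 4473 CPM, overlapping ranges) and for microglia, skeletal muscle and excitatory neuron markers. The part of these cell types in the members' values was not tested. *Hnrnpu*, which encodes SAF-A, a scaffold-attachment protein of chromatin, ran from 152 to 167 CPM (median 159) at ZT8 and from 178 to 193 CPM (median 184) at ZT20. Its log2 fold change was 0.22 ± 0.047 (95% interval 0.12 to 0.32; edgeR, adjusted p = 0.101).

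*Hnrnph1* and *Hnrnph3* encode G-tract binding proteins of the F/H group. *Hnrnph1* ran from 82.9 to 105 CPM (median 92.2) at ZT8 and from 107 to 119 CPM (median 108) at ZT20 in controls, a log2 fold change of 0.26 ± 0.059 (edgeR, adjusted p = 0.132). *Hnrnph3* ran from 18.4 to 26.5 CPM (median 22.8) at ZT8 and from 26.6 to 33.6 CPM (median 28.4) at ZT20, a log2 fold change of 0.34 ± 0.086 (edgeR, adjusted p = 0.183). Both groups of libraries stood clear of each other in these genes, but the gap was narrow for *Hnrnph3*. *Hnrnpk* ran from 124 to 136 CPM (median 132) at ZT8 and from 139 to 156 CPM (median 152) at ZT20, a log2 fold change of 0.20 ± 0.049 (edgeR, adjusted p = 0.170). *Elavl2*, which encodes the neuronal protein HuB, ran from 73.1 to 89.1 CPM (median 83.7) at ZT8 and from 89.3 to 104 CPM (median 93.1) at ZT20, a log2 fold change of 0.21 ± 0.062 (edgeR, adjusted p = 0.328).

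Other tests called some of these members. DESeq2 called 4 members higher at ZT20 in controls, *Hnrnpu* (adjusted p = 0.000175), *Hnrnph1* (0.00521), *Hnrnpk* (0.00531) and *Hnrnph3* (0.0354), and limma-voom called *Hnrnpu* alone (0.0408). In edgeR, *Hnrnph1* was called without control ZT8 replicate 3 (0.0495) and *Hnrnpu* without control ZT8 replicate 5 (0.0451).

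In *ChAT-BKO*, 8 members had an unadjusted p under 0.05, against 9.42% of all genes, among them *Hnrnpu*, *Hnrnph1* and *Hnrnph3* with log2 fold changes above 0 that were not called. *Hnrnpu* ran from 154 to 177 CPM (median 161) at ZT8 and from 176 to 186 CPM (median 181) at ZT20, with 5 of 6 ZT20 libraries above every ZT8 library and a log2 fold change of 0.15 ± 0.050 (edgeR, adjusted p = 0.287). *Hnrnph3* ran from 19.1 to 27.9 CPM (median 25.5) at ZT8 and from 25.7 to 35.4 CPM (median 28.9) at ZT20, a log2 fold change of 0.22 ± 0.094 (edgeR, adjusted p = 0.475). *Nova2* was the other member without overlap, from 59.8 to 67.1 CPM (median 65.2) at ZT8 and from 67.6 to 76.3 CPM (median 72.5) at ZT20. All 6 ZT20 libraries were above all 6 ZT8 libraries, against 0.676% of all genes, with a log2 fold change of 0.17 ± 0.053 (edgeR, adjusted p = 0.258). *Hnrnpk*, in contrast, had a log2 fold change of -0.00 ± 0.055 in *ChAT-BKO* (edgeR, adjusted p = 0.999).

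The time effects of the 2 genotypes rest on separate libraries. Across the 43 members, 34 had the same sign in both (79.1%), against 59.5% of all genes tested, and the log2 fold changes had a Pearson r of 0.71 across members, against 0.06 across all genes. Members share libraries and scaling and are not independent replicates, and they are more abundant than most genes, so this is a description. When ZT20 was set against ZT8 averaged over both genotypes in 1 fit of the 24 immunoprecipitates, a fit added after these results were seen, 5 of 43 members were called, against 2.62% of all genes (0.975% lower and 1.65% higher). *Hnrnpdl* (-0.32 ± 0.051, adjusted p = 0.000368) and *Hnrnpd* (-0.22 ± 0.046, adjusted p = 0.00624) were lower at ZT20, and *Hnrnpu* (0.18 ± 0.030, adjusted p = 0.000592), *Hnrnph1* (0.20 ± 0.044, adjusted p = 0.00797) and *Hnrnph3* (0.28 ± 0.066, adjusted p = 0.0161) were higher (log2 fold change ± SE, edgeR). None of the 23 other members was called in that fit.

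**Figure D3:**
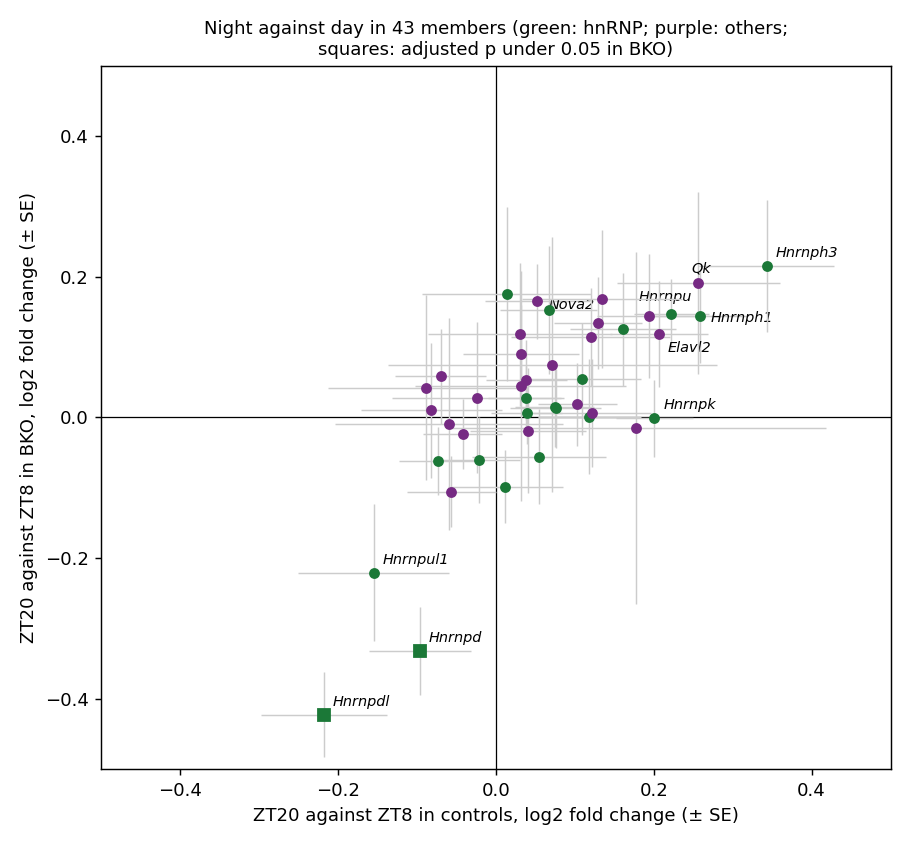
Log2 fold change of ZT20 against ZT8 in controls (horizontal) and in *ChAT-BKO* (vertical) for the 43 members, with SE bars and 6 libraries per group. *Hnrnpdl* and *Hnrnpd*, drawn as squares, were called in *ChAT-BKO* and lie at the lower left, and *Hnrnph3*, *Hnrnph1* and *Hnrnpu* lie at the upper right.

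**Figure D4:**
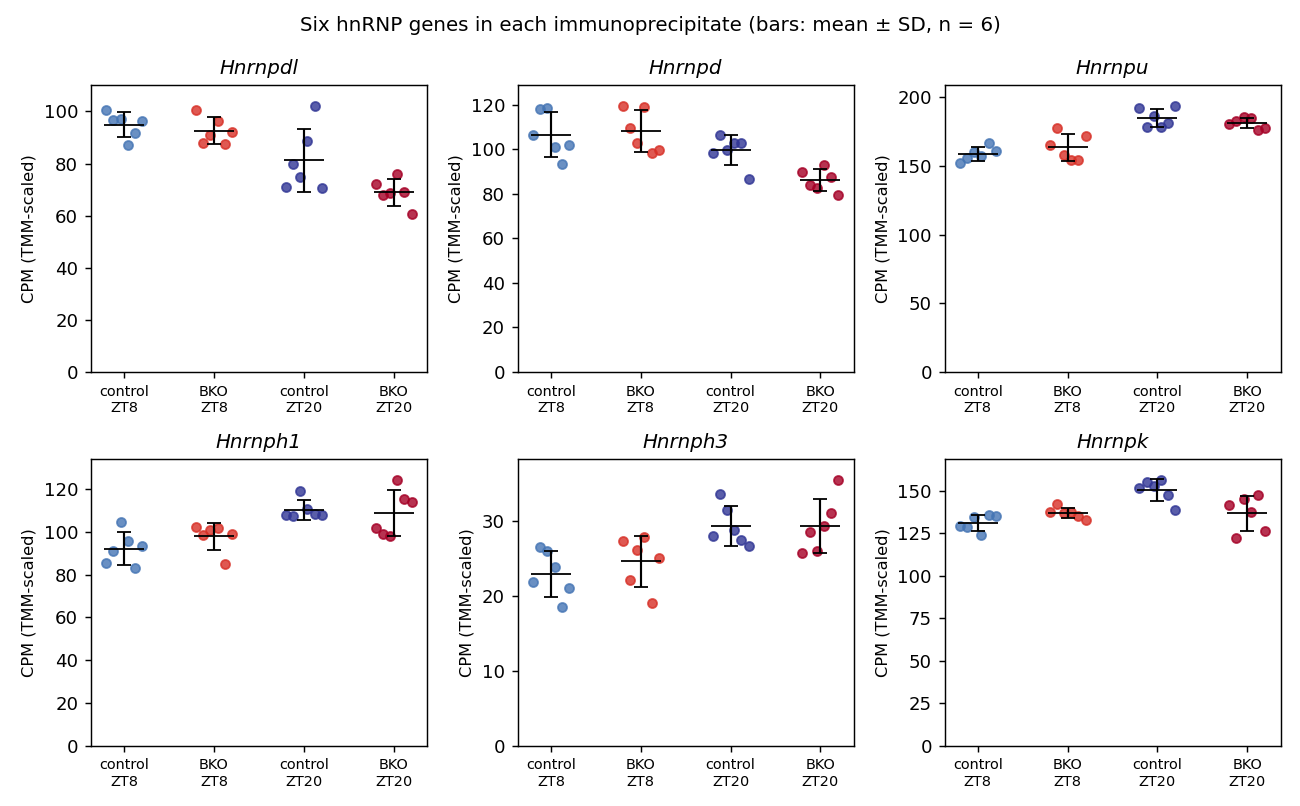
CPM of 6 hnRNP genes in every immunoprecipitate, by group, with the mean and SD (n = 6) in black and axes from 0. *Hnrnpdl* and *Hnrnpd* are lowest in *ChAT-BKO* at ZT20, *Hnrnpu*, *Hnrnph1* and *Hnrnph3* are higher at ZT20 in both genotypes, and *Hnrnpk* is highest in controls at ZT20.

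For comparison with the pair that fell, the windows of *Hnrnpu* (chr1:178337766-178338065) and *Hnrnph3* (chr10:63023800-63024099), both on the minus strand of GRCm38.p6, are printed as examples of genes higher at ZT20 in the averaged fit. Neither held any of the 3 motifs, so no letter is in capitals.
Hnrnpu: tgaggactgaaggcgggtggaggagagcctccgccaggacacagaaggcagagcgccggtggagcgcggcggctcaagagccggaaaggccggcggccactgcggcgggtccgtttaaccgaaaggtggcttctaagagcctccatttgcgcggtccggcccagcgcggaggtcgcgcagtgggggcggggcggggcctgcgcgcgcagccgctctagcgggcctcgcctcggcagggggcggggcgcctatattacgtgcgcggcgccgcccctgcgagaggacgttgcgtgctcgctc
Hnrnph3: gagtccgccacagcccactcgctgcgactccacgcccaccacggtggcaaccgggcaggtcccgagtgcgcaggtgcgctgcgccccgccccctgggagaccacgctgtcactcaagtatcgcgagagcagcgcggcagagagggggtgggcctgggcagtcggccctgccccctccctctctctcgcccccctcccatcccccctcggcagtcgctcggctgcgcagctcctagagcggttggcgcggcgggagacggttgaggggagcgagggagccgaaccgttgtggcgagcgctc

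The summed levels were described without a test. All 43 members summed to 3607 ± 50.6 CPM in controls at ZT8 and 3623 ± 67.3 in *ChAT-BKO* at ZT8 (SD, n = 6). At ZT20 the sums were 3730 ± 35.3 CPM in controls, the highest of the 4 groups, and 3668 ± 55.8 in *ChAT-BKO*. The 20 hnRNP genes summed to 2250 ± 84.7 CPM in controls at ZT8, 2266 ± 68.4 in *ChAT-BKO* at ZT8, 2348 ± 56.2 in controls at ZT20 and 2266 ± 112 in *ChAT-BKO* at ZT20 (SD, n = 6), with overlapping ranges. The 23 other members summed to between 1358 and 1402 CPM, with SDs of 42.9 to 63.1 CPM. Opposite changes within the hnRNP genes, such as those of *Hnrnpdl* and *Hnrnpu*, are not visible in such sums.

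The 6 members that the study lists as rhythmic in a separate wild-type cohort (*Mbnl1*, *Mbnl2*, *Khdrbs3*, *Hnrnpf*, *Hnrnpa2b1* and *Rbfox1*) were read at the 2 times here. That cohort was of younger mice, sampled across the whole day with fewer animals per time and scored by a rhythm test. None was called in any comparison, and all 6 had a log2 fold change above 0 for ZT20 against ZT8 in both genotypes. Most members leaned this way, 31 of 43 in controls and 30 of 43 in *ChAT-BKO*, against 50.9% and 50.8% of all genes tested. The clearest was *Khdrbs3*, which encodes the neuronal Sam68-like protein SLM2, at 31.4 ± 1.74 CPM at ZT8 and 35.8 ± 2.56 CPM at ZT20 in controls (SD, n = 6), with a log2 fold change of 0.19 (edgeR, adjusted p = 0.393). *Hnrnpa2b1* was at 230 ± 30.3 and 248 ± 17.2 CPM (0.11, adjusted p = 0.750), and *Rbfox1* at 153 ± 4.42 and 157 ± 9.26 CPM (0.04, adjusted p = 0.909). Samples at 2 times cannot show a rhythm or its phase.

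Of 29 other genes for splicing proteins kept for comparison, such as *Syncrip*, *Raly*, the PCBP genes, *Matr3* and the U2AF subunits, 28 were tested. None was called between genotypes at ZT8 (0.184% of all genes), at ZT20 (0.23%) or in the interaction (0%). Between genotypes, 8 of 28 had a log2 fold change above 0 at ZT8 and 10 of 28 at ZT20, against 50% and 48.3% of all genes. In controls 1 of 28 was called between times, *Sfpq*, which encodes a paraspeckle protein of the DBHS family, at 71.8 ± 3.33 CPM at ZT8 and 90.2 ± 4.49 CPM at ZT20 (log2 fold change 0.33 ± 0.054; edgeR, adjusted p = 0.0127). In *ChAT-BKO* 1 of 28 was called, *Rbm5*, which encodes a spliceosomal RNA-binding protein, at 47.8 ± 4.68 CPM at ZT8 and 60.6 ± 4.09 CPM at ZT20 (log2 fold change 0.33 ± 0.068; edgeR, adjusted p = 0.0481). Between times, 0.115% of all genes were called in controls and 0.285% in *ChAT-BKO*. An unadjusted p under 0.05 between times was found for 5 of 28 in controls and 10 of 28 in *ChAT-BKO*, against 8.25% and 9.42% of all genes.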

How the data were processed

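The authors aligned stranded paired-end reads to mm10 with STAR 2.7.5 and quantified genes with RSEM. The deposited table holds expected counts for 50559 genes, which were rounded here, since 6.11% of values were not whole. Genes reaching 10 counts in the sum of the 24 immunoprecipitates were scaled by TMM and tested with edgeR 4.0.16 (R 4.3.3) by the quasi-likelihood F test, with Benjamini-Hochberg adjustment over all genes and a threshold of 0.05. The study's own test, DESeq2, was run here as an alternative (1.42.0), beside limma-voom (3.58.1), other filters, scalings and covariates, and each library left out. Depth was 4.04 M to 31.7 M counts per library. Each library was 1 cord, and no pair of libraries agreed within counting error. The same-numbered libraries did not pair. The input, 1 library, carries no error. Exon lengths and positions came from GENCODE M21. Full statistics are given for members called in any comparison and the 5 with the smallest p in each, and the others by level, range or count. Members and lists were chosen with earlier results of these data known. The kit keeps strand, but the strand setting of the counting is not given in the sources used here, and *Hnrnpd*, *Hnrnpu*, *Hnrnpk*, *Hnrnph3* and *Nova2* overlap exons of genes on the other strand.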

Additional observations from a re-analysis of the deposited data

Results flagged for a closer look

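In 8 of 172 groups of 6 libraries (4.65%), 1 library lay far from the others by the size of its gap relative to the group's range, a test that flags about 5% of groups by chance. *ChAT-BKO* ZT8 replicate 5, the shallowest library (4.04 M counts), was lowest for 3 members, with *Hnrnph1* at 85.1 CPM (the others 98.4 to 102), *Hnrnpl* at 111 CPM (119 to 123) and *Rbfox2* at 122 CPM (134 to 141). In controls at ZT20, *Hnrnph1* was at 119 CPM in replicate 3 (107 to 111), *Rbfox2* at 117 CPM in replicate 5 (124 to 126) and *Elavl2* at 104 CPM in replicate 4 (89.3 to 94.1). In controls at ZT8, *Ptbp3* was at 3.05 CPM in replicate 5 (1.03 to 1.74) and *Khdrbs1* at 95.1 CPM in replicate 3 (87.0 to 89.9).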

How the results depend on the processing

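No alternative called a member between genotypes at ZT8 or in the interaction. At ZT20, 1 member (*Hnrnpd*, adjusted p = 0.0375) was called between genotypes once a covariate described how steeply log2 CPM rose with gene length in each library. Between times in controls, where edgeR called 0 members, DESeq2 called 4, limma-voom 1, the replicate block 2 (*Hnrnph1* and *Hnrnph3*), the length slope covariate 5, all 24 libraries in 1 fit 1, and both genotypes averaged 5, and left-out libraries gave 0 to 1. Between times in *ChAT-BKO*, where edgeR called 2, the length slope covariate called 7 and both genotypes averaged 5, left-out libraries gave 1 to 2, and the other 7 alternatives, the replicate block among them, called the same 2 genes. The cause of these shifts was not tested, and the length slope covariate raised the calls over all genes too, from 25 to 360 in controls and from 62 to 485 in *ChAT-BKO*. Same-numbered libraries had correlations of -0.20 to 0.36 in their deviations from the group means, with at most 3 of 6 pairs over 0.1, so the numbers were not taken to pair samples. Including the input in the scaling raised the members above it from 7 to 22. Among named genes, *Hnrnpd* at ZT8 between genotypes turned sign without control ZT8 replicate 5 (-0.00497, uncalled in either case; left-out libraries gave up to 0.0598), 25 values gained and 4 lost a call, and 617 kept direction and side. For the 41 members not called in edgeR, at most 12 turned sign in any 1 setting. *Ptbp3*, the member with the fewest counts (557), and *Celf5* had the widest intervals.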

Other observations

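Spread between libraries of a group differed widely among members. The mean within-group coefficient of variation was 2.67% for *Hnrnpa3*, 3.32% for *Hnrnpul2* and 3.58% for *Hnrnpl*, and 32.2% for *Ptbp3*, 26.3% for *Celf5* and 16.5% for *Ptbp1*. The last 3 were among the 4 members with the lowest CPM. Counts were whole (to within 0.001) in every immunoprecipitate for 28 of 43 members. RSEM divides reads that fit several loci, which leaves values that are not whole, and in 11 members most libraries had such values, among them *Hnrnpa1* and *Hnrnpk* in 24 of 24 libraries and *Hnrnpu* and *Hnrnph3* in 23 of 24, against 7 of 24 for *Hnrnpdl* and 0 of 24 for *Hnrnpd*. Levels of the first 4 genes are less certain in this respect than those of the latter pair.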
